A study of Mus musculus with 12 samples.

Results

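The circadian clock genes Per1, Per2, Per3, Cry1, Cry2, Clock, Arntl, Nr1d1, Nr1d2 and Dbp were measured in mouse femoral head cartilage explants. They were found by the gene symbol printed beside each probe of a bead array, and 16 of 46632 probes carried one of these 10 symbols. Testing was limited to probes above background on 4 or more of the 12 arrays, taking a detection p under 0.05 as above background. This left 11 of the 16 probes, which cover 9 of the 10 genes, out of 18200 probes kept in all. The explants came from 21-day-old TS-4/5∆cat mice, whose Adamts4 and Adamts5 genes lack the exons that encode the catalytic domains, so every group, the untreated one included, carried both deletions. By the labels, each well held 4 hips and had 24 hours of culture in medium with serum before treatment. Explants were left untreated, stimulated with IL-1α at 10 ng/ml or stimulated with retinoic acid at 10 µM for 3 days. Each treatment had 4 arrays, 2 in batch 1 and 2 in batch 2. Batch 1 came from the mouse line named Donut and batch 2 from the line named Gertrude, so line and batch cannot be told apart.

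The circadian clock is a feedback loop of transcription that runs in nearly every cell. CLOCK and BMAL1, the product of Arntl, bind E-box sequences and switch on Per, Cry, Nr1d1, Nr1d2 and Dbp, and the PER and CRY proteins then repress CLOCK and BMAL1. The nuclear receptors REV-ERBα and REV-ERBβ, products of Nr1d1 and Nr1d2, repress Arntl, and DBP carries the rhythm to genes with D-box sequences. Chondrocytes hold such a clock, which times part of the daily rhythm of matrix genes. Each explant was harvested once and the hour of harvest is not given in the sources used here, so a change in mean level and a shift in phase cannot be told apart in any value below.

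Reference promoters show which of the genes hold the sequences of this loop close to the transcription start. RefSeq windows on GRCm38.p6, from 250 bases before to 50 bases after a start site, were at hand for 9 of the 10 genes, Per2 being the one without. These genes had 13 windows, and a match in any window of a gene counted. For Per1, Clock and Arntl the matches given below lay in windows at start sites inside the gene. The E-box CACGTG lay in 2 of these 9 genes, Per1 and Cry1, against 8.09% of the 27025 genes with a window. The stretches around it are shown because PER1 and CRY1 are the repressors that the E-box switches on, with the E-box in capitals.
Per1, chr11:69098756-69098815, plus strand, E-box beginning 166 bases before the start site: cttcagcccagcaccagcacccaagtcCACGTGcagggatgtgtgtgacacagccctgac
Cry1, chr10:85185082-85185141, minus strand, E-box beginning 60 bases before the start site: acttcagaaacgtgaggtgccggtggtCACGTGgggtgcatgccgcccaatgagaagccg

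The related motif CACGTT, searched on both strands, was present in the windows of Cry1, Cry2 and Nr1d1, 3 of the 9 genes, against 5.44% of all genes. The D-box TTANGTAA was found 2 times in the window of Per3 and in none of the other 8 genes, against 2.72% of all genes. The half-site AGGTCA, which REV-ERB and retinoic acid receptors share, was present in Per1, Clock, Arntl and Nr1d2, 4 of the 9 genes, against 18.1% of all genes. In Arntl it formed part of the longer motif NTAGGTCA, found in 2.95% of all genes. A repeat of the half-site with a spacer of 5 bases, the classical retinoic acid response element, was in none of the 13 windows and in 3 of the 27025 genes. These are matches of letters in short windows, and no binding was measured.

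The arrays held between 13786 and 19485 detected probes, with 13786 to 14965 in batch 1 and 16732 to 19485 in batch 2. The untreated array of batch 2, replicate 2, had the most, 19485 against 17212 on the next. Marker genes of both treatments differed from untreated explants. Cyp26b1, which breaks down retinoic acid, had a mean log2 intensity of 13.75 with retinoic acid and 9.81 without treatment. Nos2, which makes nitric oxide, had 8.93 with IL-1α and 4.86 without. Defining cartilage markers were present in the untreated explants, with 8 of 9 genes kept and Matn3 the one below background. The summed intensity of that marker list was 84624 to 112328 untreated, 51749 to 68161 with IL-1α and 13149.6 to 22826 with retinoic acid. All 15 kept probes of the list were lower with retinoic acid and 10 of 15 with IL-1α. In whole explants, fewer cells of a type and less RNA per cell cannot be told apart, and the part of this loss in the clock values was not tested. The haemoglobin, myeloid and leukocyte markers had 0 of 14 kept probes called with retinoic acid and 1 lower with IL-1α, and their summed intensity was 88991 to 129408 untreated, 113779 to 133262 with IL-1α and 78536 to 137851 with retinoic acid. Ptprc, the leukocyte marker CD45, was undetected on all 12 arrays. Of the markers of synovium and ligament, 5 of 5 kept probes were lower with retinoic acid and 3 with IL-1α. For endothelium it was 0 and 3 of 5, for adipocytes 2 and 2 of 2, and for muscle 1 and 2 of 2. The kept bone markers went both ways with retinoic acid, 1 higher and 1 lower, and 1 of 2 was lower with IL-1α.

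With retinoic acid, the Per2, Per3, Cry2 and Dbp transcripts fell and the Nr1d2 transcript rose, while Clock, Arntl and Nr1d1 did not pass the test. In limma, 5 of the 11 clock probes were lower at an adjusted p under 0.05 against 17.1% of all 18200 probes, and 1 was higher against 18.2%. The median log2 difference of the 11 probes was -0.50, against 0.02 for all kept probes. With IL-1α, the Nr1d1, Nr1d2 and Cry2 transcripts and a dim Clock probe rose and Per2 fell. That is 4 of 11 probes higher against 15.2% of all probes, and 1 lower against 14.1%, with a median difference of 0.42 against 0.02. Under scaling to one median the split was 3 higher and 0 lower. Between the agents, 7 of 11 clock probes were lower with retinoic acid than with IL-1α against 15.8% of all probes, and 0 were higher against 15.2%. Both comparisons with untreated explants share the same 4 untreated arrays. Nothing in the labels ties an array to an animal, so p-values measure the spread between arrays, which may be technical in part.

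**Figure D1:**
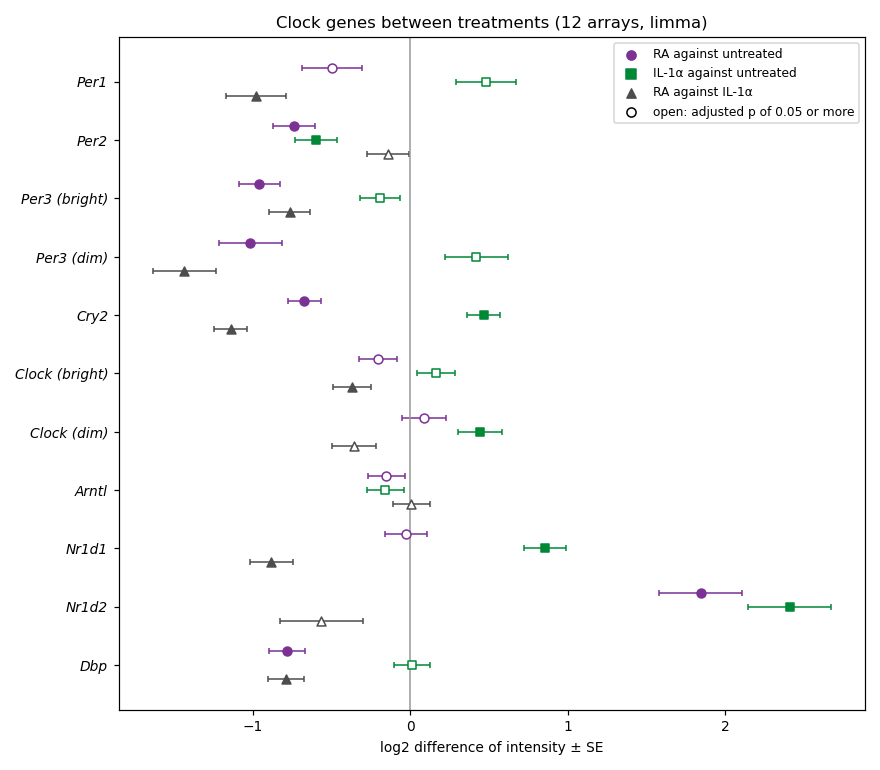
Log2 difference of intensity ± SE for the 11 kept clock probes in the 3 comparisons of treatments, each from 12 arrays, with filled symbols for an adjusted p under 0.05. The Per, Cry2 and Dbp symbols for retinoic acid lie left of 0, and both Nr1d2 symbols against untreated lie far to the right, at 1.84 and 2.41.

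The repressors of the loop come first. Cry2, which encodes a cryptochrome that represses CLOCK and BMAL1, gave the tightest values of all the clock genes. Its log2 intensity (probe ILMN_2665681) was 8.40, 8.32, 8.31 and 8.37 in the untreated explants, batch 1 first. With IL-1α it was 8.76, 8.85, 8.79 and 8.86, and with retinoic acid 7.65, 7.70, 7.57 and 7.80. After normalization the 3 treatments did not overlap on any array. All 4 IL-1α arrays were above and all 4 retinoic acid arrays below the untreated range. Before normalization the intensities of batch 2 overlapped, at 516.4 and 378 untreated, 629.6 and 464.4 with IL-1α and 338.8 and 425.8 with retinoic acid. IL-1α raised Cry2 by 0.47 ± 0.11 (SE, adjusted p = 0.0052), a 1.38-fold change. Retinoic acid lowered it by 1.59-fold, a log2 difference of -0.67 ± 0.11 (adjusted p = 2.59e-04). The distance between the agents was -1.14 (adjusted p = 2.68e-06), and these 3 calls held in all 22 other settings tried. Under scaling to one median the retinoic acid difference shrank to -0.49 (adjusted p = 0.0404). The exact permutation p was 0.0286 in each comparison, the smallest that 4 arrays against 4 can give.

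Per3, a member of the Period family, was read by a bright and a dim probe. The bright probe (ILMN_1225626) had untreated values of 9.11, 8.64, 9.27 and 9.33. With retinoic acid the values were 7.87, 7.82, 8.22 and 8.60, each below the lowest untreated array. IL-1α gave 8.51, 8.68, 9.04 and 9.35, which overlapped the untreated values. Retinoic acid lowered this probe by 1.94-fold, at -0.96 ± 0.13 (adjusted p = 6.92e-05), and the difference with IL-1α was -0.19 ± 0.13 (adjusted p = 0.284). The dim probe (ILMN_2609014) had 5.65, 5.55, 6.63 and 6.17 in untreated explants and 4.68, 4.68, 5.49 and 5.09 with retinoic acid. It was not detected on either retinoic acid array of batch 1, so within batch 1 only a bound can be given, at least 1.19-fold lower than untreated. Over both batches the fitted difference of this probe was -1.02 ± 0.20 (adjusted p = 0.00144), which shrank to -0.58 with an offset of 50 (adjusted p = 0.00611). With IL-1α the dim probe gave 6.75, 6.40, 6.41 and 6.11, and the 2 Per3 probes had opposite signs, -0.19 and 0.42, neither of which passed the test. Between the agents both were lower with retinoic acid in limma, the bright probe at -0.77 (adjusted p = 4.69e-04). For the dim probe the bound within batch 1 was at least 2.34-fold, and the fitted difference, which includes the 2 undetected arrays, moved from -1.43 to -0.86 with an offset of 50 (adjusted p = 1.06e-04 and 5.57e-04). Against untreated explants, the IL-1α difference of the dim probe was called without the IL-1α array of batch 2, replicate 1 (0.61, adjusted p = 0.0361).

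Per2, the Period gene with a central role in the loop, fell with both agents. The detected probe (ILMN_2765136) read 8.64, 8.86, 9.60 and 9.72 in untreated explants. With IL-1α it read 8.20, 8.03, 9.36 and 8.86, and with retinoic acid 7.87, 7.95, 9.24 and 8.82. The batches differed more than the treatments here, so the pooled groups overlapped, but within each batch every treated array was below both untreated arrays. Retinoic acid lowered Per2 by 1.67-fold (-0.74 ± 0.13, adjusted p = 6.95e-04) and IL-1α by 1.51-fold (-0.60 ± 0.13, adjusted p = 0.0045). The difference between the agents, -0.14 ± 0.13, did not pass the test (adjusted p = 0.469). The exact permutation p without regard to batch was 0.143 for retinoic acid and 0.171 for IL-1α. When quantile normalization was replaced by scaling to one median, that setting left the IL-1α difference at -0.51 with an adjusted p of 0.0791. Both calls were lost when batch was left out of the model (adjusted p = 0.327 and 0.533). The other Per2 probe (ILMN_1258523) was detected on 2 arrays and was not tested.

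Per1, a Period gene that many stimuli induce rapidly, did not pass the test against untreated explants with either agent. Its values (ILMN_1247920) were 7.26, 7.33, 7.13 and 6.71 untreated and 7.58, 7.75, 7.34 and 7.68 with IL-1α. The 4 IL-1α arrays lay above all 4 untreated arrays, with a difference of 0.48 ± 0.19 (adjusted p = 0.0752, exact permutation p = 0.0286). With retinoic acid the values were 6.34, 6.30, 6.87 and 6.93. They were below both untreated arrays in batch 1 and lay between them in batch 2, for a difference of -0.50 ± 0.19 (adjusted p = 0.0575). The difference passed with array weights (-0.57, adjusted p = 0.0258) and with detection required on all 12 arrays (adjusted p = 0.041). It also passed without the untreated array of batch 2, replicate 2 (-0.70, adjusted p = 0.0117) and without either retinoic acid array of batch 2 (adjusted p = 0.0379 and 0.0248) or the IL-1α array of batch 2, replicate 1 (adjusted p = 0.0497). Without that same IL-1α array, the IL-1α difference passed as well, at 0.61 (adjusted p = 0.0421). With batch alone in place of the replicate block both differences passed, with adjusted p of 0.0348 and 0.0479. Between the agents Per1 differed by -0.98 ± 0.19 (adjusted p = 0.00148), with no overlap of the arrays and no loss of the call in 22 settings.

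Cry1, the other cryptochrome, was not detected on any array. Its probe (ILMN_2618668) lay between 4.38 and 4.64 in all 12, below the lowest detected signal of every array (4.86 to 5.48), so no level or difference can be given for it. The dim Cry2 probe (ILMN_1256483) was also undetected throughout.

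**Figure D2:**
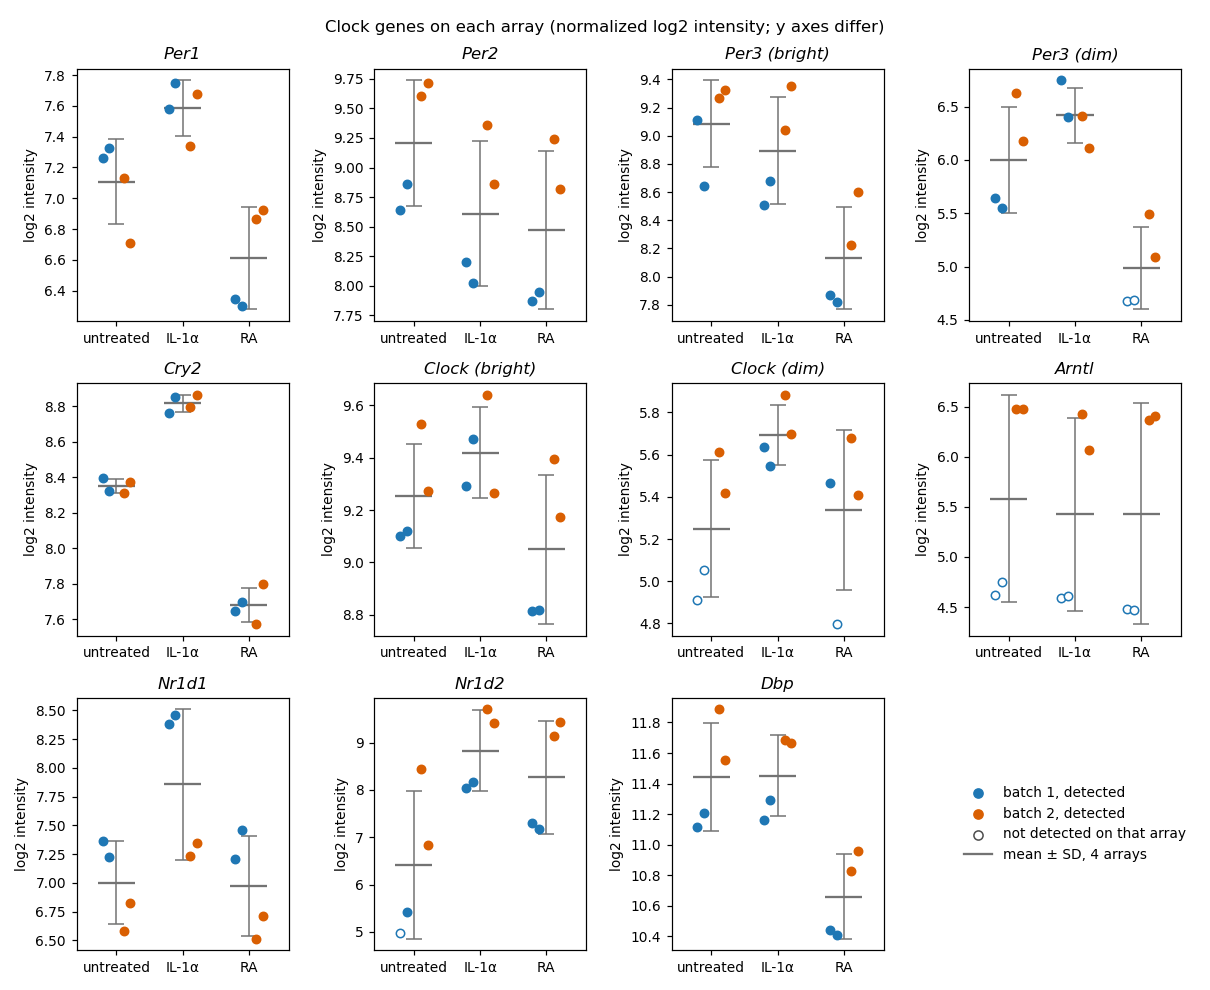
Normalized log2 intensity of the 11 kept clock probes on each of the 12 arrays, by treatment and coloured by batch, with open circles for arrays on which the probe was not detected and bars for the mean ± SD of 4 arrays. Cry2 separates the 3 treatments in both batches, whereas Arntl separates the batches, at 4.47 to 4.75 in batch 1 and 6.07 to 6.48 in batch 2.

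Among the activators, Clock changed little. Clock encodes the partner of BMAL1 in the complex that binds the E-box. Its bright probe (ILMN_2610973) read 9.10, 9.12, 9.53 and 9.27 untreated, 9.29, 9.47, 9.64 and 9.27 with IL-1α, and 8.81, 8.82, 9.40 and 9.17 with retinoic acid. The groups overlapped, and the differences from untreated were 0.16 ± 0.12 with IL-1α and -0.20 ± 0.12 with retinoic acid (adjusted p = 0.324 and 0.208). Under scaling to one median the latter became 0.00. Between the agents it differed by -0.37 (adjusted p = 0.0311), but this call was lost in 7 of 22 settings, among them leaving out either batch 1 array of either agent (adjusted p 0.0887 to 0.134) or the IL-1α array of batch 2, replicate 1 (adjusted p = 0.0545). The dim probe (ILMN_2600964) read 4.91, 5.06, 5.61 and 5.42 untreated and 5.64, 5.55, 5.88 and 5.70 with IL-1α. It was not detected on the untreated arrays of batch 1, where the bound was at least 1.24-fold higher with IL-1α. Its call with IL-1α (0.44 ± 0.14, adjusted p = 0.0308) was lost in 8 of 21 settings, including without the untreated array of batch 1, replicate 1 (adjusted p = 0.131) and without either IL-1α array of batch 1 (0.0812 and 0.119). With retinoic acid it read 5.46, 4.80, 5.68 and 5.41, a difference of 0.09 ± 0.14 (adjusted p = 0.672). The last Clock probe (ILMN_2589603) was undetected on all 12 arrays.

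Arntl encodes BMAL1, without which the loop stops. Its probe (ILMN_2707510) was detected on all 6 arrays of batch 2 and on 0 of 6 in batch 1, so it passed the filter through batch 2 alone and only batch 2 can speak on treatment. There it stood at 6.48 and 6.48 in untreated explants, at 6.43 and 6.07 after IL-1α and at 6.37 and 6.41 after retinoic acid. Each treated array was below both untreated arrays, with within-batch differences of -0.23 for IL-1α and -0.09 for retinoic acid. The fitted differences over both batches were -0.16 ± 0.12 and -0.15 ± 0.12 (adjusted p = 0.338 and 0.355).

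Of the nuclear receptor genes, Nr1d2 rose with both agents and Nr1d1 with IL-1α. Nr1d2, which encodes REV-ERBβ, read 4.98, 5.43, 8.44 and 6.83 in untreated explants (ILMN_1228513), and the first of these was not above background. With IL-1α it read 8.04, 8.16, 9.70 and 9.41. With retinoic acid it read 7.30, 7.18, 9.14 and 9.43. Within each batch every treated array was above both untreated arrays, although the pooled groups overlapped because the untreated arrays of batch 2 were as high as 8.44. IL-1α raised Nr1d2 by 5.31-fold (2.41 ± 0.26, adjusted p = 2.77e-05) and retinoic acid by 3.59-fold (1.84 ± 0.26, adjusted p = 1.24e-04). Within batch 1 the log2 differences were 2.90 and 2.04, and within batch 2 they were 1.92 and 1.65. The pair of untreated arrays of batch 2 stood further apart, at 8.44 and 6.83, than any other pair of one treatment and batch. The differences stayed between 1.92 and 2.79 for IL-1α and between 1.43 and 2.23 for retinoic acid in 21 other settings. Each call was lost when batch was left out of the model (adjusted p = 0.0973 and 0.183). Between the agents the difference was -0.56 ± 0.26 (adjusted p = 0.128), and it passed without the untreated array of batch 2, replicate 1 (adjusted p = 0.0196) or without the retinoic acid array of batch 2, replicate 2 (-0.79, adjusted p = 0.0476). The other Nr1d2 probe (ILMN_2602387) was detected on 1 array and was not tested.

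Nr1d1, which encodes REV-ERBα, rose with IL-1α and not with retinoic acid. Its probe (ILMN_2749669) read 7.36, 7.23, 6.58 and 6.83 untreated and 8.38, 8.46, 7.24 and 7.34 with IL-1α. Within each batch both IL-1α arrays were above both untreated arrays, and the increase was 1.81-fold (0.86 ± 0.13, adjusted p = 4.81e-04). The call was lost when batch was left out of the model (adjusted p = 0.179). Within batch 1 the log2 difference with IL-1α was 1.12 and within batch 2 it was 0.59. Retinoic acid gave 7.21, 7.46, 6.51 and 6.71, overlapping the untreated values of the same batch, with a difference of -0.03 ± 0.13 (adjusted p = 0.904). This value turned to 0.13 under scaling to one median and has no settled sign. The difference between the agents was -0.88 ± 0.13 (adjusted p = 2.37e-04). So Nr1d1 and Nr1d2, which encode closely related repressors, both rose with IL-1α, whereas with retinoic acid the Nr1d2 difference alone passed the test.

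Dbp, the D-box factor at the output of the loop, fell with retinoic acid and did not pass the test with IL-1α. Its probe (ILMN_2616226) read 11.12, 11.21, 11.89 and 11.56 untreated, and 11.16, 11.29, 11.69 and 11.66 with IL-1α. With retinoic acid it read 10.44, 10.41, 10.83 and 10.96, each below every untreated and IL-1α array. The fall was 1.72-fold (-0.78 ± 0.11, adjusted p = 1.50e-04, exact permutation p = 0.0286) and held in 22 other settings, where it lay between -0.83 and -0.59. Within the batches it was -0.74 and -0.83. Before normalization the intensities overlapped, at 1187.7 and 1568.2 untreated against 1188.6 and 907.5 with retinoic acid in batch 1, so the fall is relative to the other probes of the same arrays. The same limit holds for Cry2, Per2 and the bright Per3 probe, whose untreated and retinoic acid intensities overlapped in batch 2 before normalization. For the bright Per3 probe these were 952.4 and 681.4 untreated against 506.6 and 706.1 with retinoic acid. With IL-1α the difference was 0.01 ± 0.11 (adjusted p = 0.961), and between the agents it was -0.79 ± 0.11 (adjusted p = 1.47e-04).

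Counted by arrays, 4 of the 11 clock probes did not overlap between retinoic acid and untreated explants, against 16.9% of all kept probes. For IL-1α against untreated it was 2 of 11 against 13.5%, and between the agents 4 of 11 against 17.7%. The probes without overlap with retinoic acid were both Per3 probes, Cry2 and Dbp, and those with IL-1α were Per1 and Cry2.

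**Figure D3:**
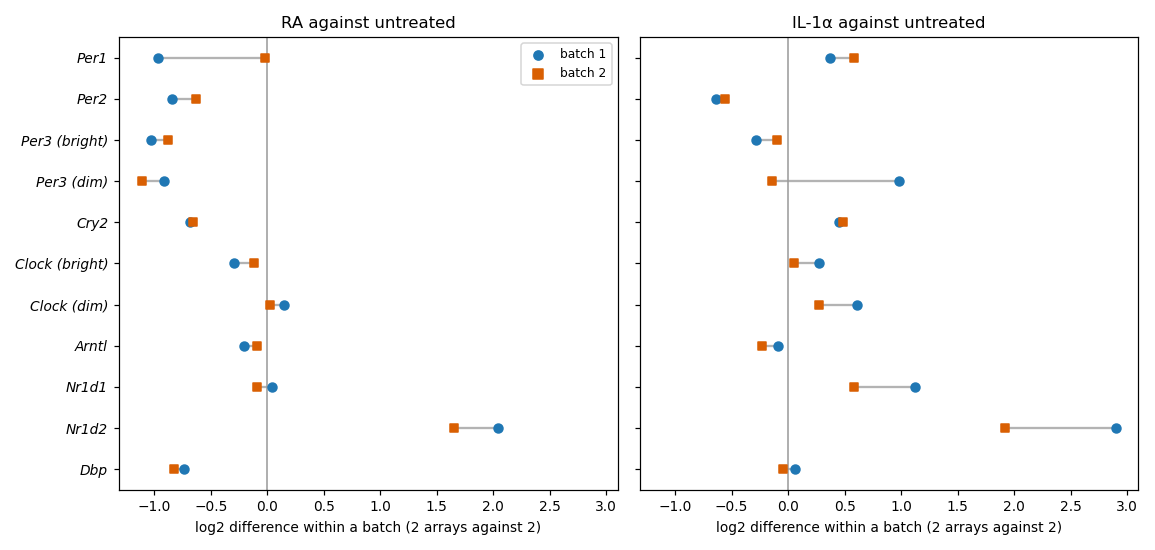
Log2 difference from untreated explants within batch 1 and within batch 2, 2 arrays against 2, for the 11 kept clock probes, with retinoic acid on the left and IL-1α on the right. The markers of the batches lie close together for Cry2, Dbp and Per2, and apart for Per1 with retinoic acid (-0.97 and -0.02) and for the dim Per3 probe with IL-1α (0.98 and -0.14). They also lie apart with IL-1α for Nr1d2 (2.90 and 1.92) and Nr1d1 (1.12 and 0.59), whose interactions did not pass the test.

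Whether a treatment acted differently in the 2 batches was tested as an interaction. For the effect of retinoic acid 1 of 11 clock probes passed, Per1, against 2.86% of all probes. For the effect of IL-1α 1 passed, the dim Per3 probe, against 4.82%, and the same probe passed for retinoic acid against IL-1α, against 8.76%. The Per1 interaction was 0.95 ± 0.24 (adjusted p = 0.0454), from a difference of -0.97 in batch 1 and -0.02 in batch 2. The call was lost in 14 of 19 settings, among them leaving out any one of 9 of the 12 arrays. The dim Per3 interactions were -1.12 ± 0.27 (adjusted p = 0.0300) and 0.93 ± 0.27 (adjusted p = 0.0469), lost in 7 and 11 of 18 settings, 5 and 8 of which left out 1 array. The second of these rests on arrays where the probe was not detected.

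Most of the array differed between the batches, and the clock genes did so no more often. In limma 8 of the 11 clock probes were called, against 76.3% of all kept probes. The median absolute log2 difference was 0.49, against 0.56 for all kept probes. Of the 11 probes, 7 were higher in batch 2 against 33.4% of all probes and 1 was lower against 42.9%. Just 1 of 11, Arntl, had no overlap between the batches, against 39.3% of all probes. Its values ran from 4.47 to 4.75 in batch 1, with a mean of 4.59, and from 6.07 to 6.48 in batch 2, with a mean of 6.37. Since the probe was undetected throughout batch 1, the difference is at least 2.01-fold. It passed the filter through batch 2 alone, so its call and its lack of overlap were set by the filter and are no test. Nr1d2 was higher in batch 2 by 1.98 ± 0.22 (adjusted p = 7.38e-07) and Per2 by 1.01 ± 0.11 (adjusted p = 6.48e-07). Nr1d1 was lower by 0.81 under quantile normalization, at -0.81 ± 0.11 (adjusted p = 5.22e-06). Under scaling to one median, where the median of all kept probes moved from -0.13 to 0.51, Nr1d1 had a difference of 0.08, which is -0.44 relative to that median, and 10 of the 11 probes were called higher. Relative to that median, Nr1d2 lay at 2.15 and Per2 at 1.32. The bright Per3 probe, Dbp and both Clock probes were higher by 0.28 to 0.53 under quantile normalization. The bright Clock call was lost without any one of 5 arrays (adjusted p 0.0544 to 0.0717). Per1 and Cry2 differed by 0.01 each and did not pass. The dim Per3 probe (0.37, adjusted p = 0.0573) passed without the IL-1α array of batch 1, replicate 1, or without either IL-1α array of batch 2 (adjusted p 0.00852 to 0.0496). The cartilage markers moved with the batches as well, with 12 of 15 kept probes higher and 1 lower in batch 2, and their part in the clock values was not tested. Harvest hour, mouse line and array batch cannot be told apart as sources of these values.

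**Figure D4:**
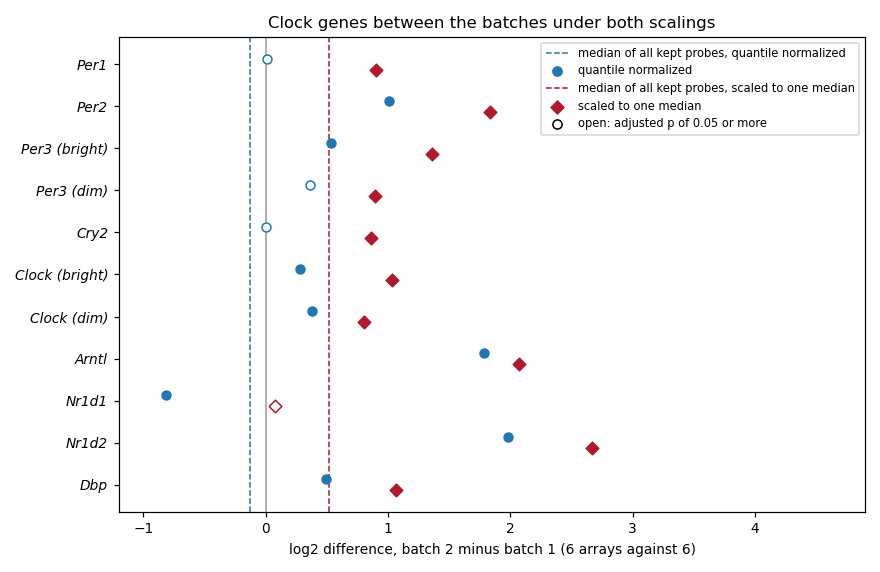
Log2 difference of batch 2 minus batch 1 (6 arrays against 6) for the 11 kept clock probes under quantile normalization (circles) and under scaling to one median (diamonds), with the median of all kept probes as dashed lines and open symbols for an adjusted p of 0.05 or more. The Arntl symbols use background values in batch 1 and give no exact difference, and Nr1d1 moves from -0.81 to 0.08.

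The wider clock network was described from 3 gene lists. The first held 11 other transcription factors of the clock loops, of which 7 genes had a kept probe. Npas2, which encodes a factor that can stand in for CLOCK, rose with IL-1α on both probes, by 1.14 (adjusted p = 5.91e-04) and 2.11 (adjusted p = 3.59e-07). Its stronger probe (ILMN_2668835) had a mean of 5.46 ± 0.41 untreated, 7.57 ± 0.26 with IL-1α and 5.91 ± 0.13 with retinoic acid (SD, n = 4). Between the agents Npas2 was lower with retinoic acid by 1.10 and 1.66 on the log2 scale, at -1.10 and -1.66. The first of these differed between the batches, at -0.57 in batch 1 and -1.63 in batch 2. Its interaction in limma was -1.06 (adjusted p = 0.00951). In this list 2 of 11 kept probes were higher and 3 lower with retinoic acid, against 18.2% and 17.1% of all probes, and 3 were higher and 1 lower with IL-1α, against 15.2% and 14.1%. The median log2 differences were -0.11 and 0.19, beside 0.02 for all probes in both comparisons.

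The second list held 16 genes whose products modify clock proteins, with 9 genes kept. Csnk1e, a casein kinase that phosphorylates PER proteins, rose with retinoic acid by 1.23 (adjusted p = 5.05e-06) and 0.93 (adjusted p = 0.00245) on 2 probes, while the remaining dim probe had 0.29 (adjusted p = 0.136). Csnk1e rose with IL-1α as well, by 0.70, 0.70 and 0.40 on the same probes in that order (adjusted p = 0.00103, 0.0180 and 0.0495). On the second probe the distance between the agents differed between the batches, with a limma interaction of 1.16 (adjusted p = 0.00273). Usp2, a deubiquitinase that acts on clock proteins, was lower with retinoic acid than with IL-1α by 1.29 on the log2 scale (-1.29, adjusted p = 6.40e-05). With retinoic acid 4 of 15 kept probes were higher and 2 lower, beside the same 18.2% and 17.1% of all probes. With IL-1α 8 of 15 were higher and 0 lower, beside 15.2% and 14.1%. The medians of the list were 0.12 and 0.38, beside 0.02 for all probes in both comparisons. The IL-1α count of 8 fell to 3 under scaling to one median, to 3 without the untreated array of batch 1, replicate 1, or either IL-1α array of batch 1, to 4 without the untreated array of batch 1, replicate 2, and to 5 without that of batch 2, replicate 2. The retinoic acid count of 6 fell to 3 without the retinoic acid array of batch 2, replicate 1, or the untreated array of batch 2, replicate 2.

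The third list held 10 clock outputs, with 7 genes kept. Klf9, a transcription factor that also responds to glucocorticoids, rose with retinoic acid by 1.40 (adjusted p = 9.84e-07). Cdkn1a, the cell cycle inhibitor p21, rose with IL-1α by 1.82 and 1.39 on its 2 probes (adjusted p = 9.27e-05 and 1.01e-04). The first of these differed between the batches, with an interaction of -0.96 (adjusted p = 0.0115). On that probe Cdkn1a was also lower with retinoic acid than with IL-1α, at -1.07 in limma (adjusted p = 0.00322). This difference was -1.80 within batch 1 and -0.34 within batch 2. The call was lost with treatment alone in the model (adjusted p = 0.0607). Por, the electron donor of cytochrome P450 enzymes, rose with IL-1α by 1.10 (adjusted p = 0.00384). Its difference was 1.67 within batch 1 and 0.52 within batch 2, and 0.75 over both with an offset of 50 (adjusted p = 0.00511). Noct, listed on the array as Ccrn4l and known for its rhythmic transcript, was lower with retinoic acid than with IL-1α (-1.09, adjusted p = 1.43e-04). With retinoic acid 5 of 10 kept probes were higher and 1 lower, where 18.2% and 17.1% of all probes were. With IL-1α 5 were higher and 0 lower, where 15.2% and 14.1% were. The medians of the list were 0.43 and 0.42, where that of all probes was 0.02. The retinoic acid count of 6 fell to 2 without either retinoic acid array of batch 2 and to 3 without either untreated array of batch 2.

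**Figure D5:**
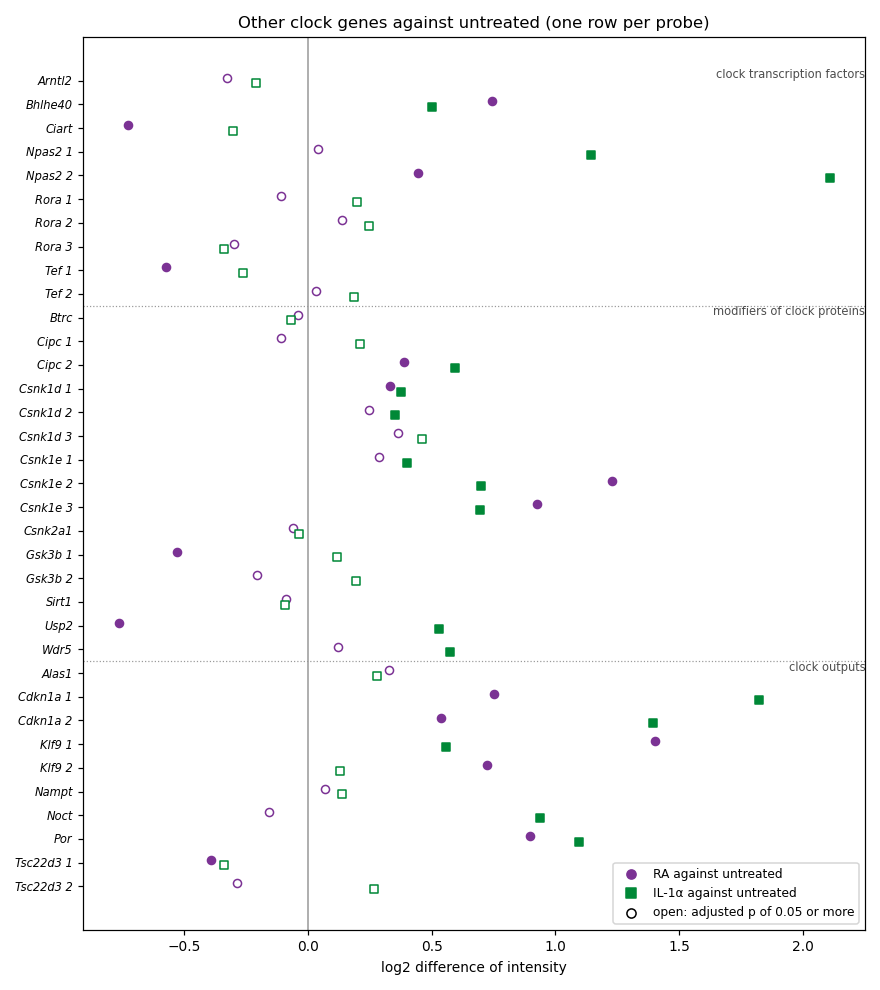
Log2 difference from untreated explants for the kept probes of 3 lists of other clock genes, 1 probe left out, with circles for retinoic acid, squares for IL-1α and open symbols for an adjusted p of 0.05 or more. Npas2 and Cdkn1a lie furthest right with IL-1α (up to 2.11 and 1.82), and Klf9 lies furthest right with retinoic acid (1.40).

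The probes most like 3 of the clock genes were found from log2 intensities centred on the mean of each batch, by the root mean square difference over the 12 arrays. For Dbp these were Efs, Acad10, D6Wsu176e, Crebl2 and Trpt1, with differences of 0.0704 to 0.0875 against a median of 0.45 over all probes. For Nr1d1 they were EG434078, Ttc9c, Zhx2, Wipi1 and Gclm, at 0.0836 to 0.14 against a median of 0.49. For Arntl, which was undetected on 6 of the 12 arrays so that its batch 1 values were background, they were Zfp28, A930001N09Rik, Galnt11, Umps and Ttc3, at 0.0591 to 0.0776 against a median of 0.29. Around its batch means Arntl itself varied by a root mean square of 0.12, against 0.38 for Dbp and 0.43 for Nr1d1. The Arntl differences are thus not small beside its own variation. No other clock gene of the 10 was among these 15 probes.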

How the data were processed

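RNA from the explants was hybridised to Illumina Sentrix Mouse 1.1 bead arrays, 12 in all. The authors deposited linear probe intensities, neither background-corrected nor normalized, and a detection score per probe and array. Bright probes have a deposited score of 1, and the detection p was taken as 1 minus this score. The program that summarised the beads is not given in the sources used here.

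Intensities were background-corrected, quantile normalized and log2-transformed with neqc (limma 3.58.1, R 4.3.3, offset 16). Of 46632 probes, 18200 passed the detection filter and 28432 were left out. The number of arrays limits the precision. Treatments were compared with limma in a model of treatment plus batch and replicate number (4 levels), as the study's methods state, batches in a model of treatment plus batch, and interactions from the 6 treatment and batch means. P-values were adjusted by Benjamini-Hochberg over all kept probes, and exact permutation tests were two-sided over arrays, with 0.0286 the smallest p for 4 against 4. A bound replaces a fold where a probe was undetected throughout a group. It compares the brighter group's mean with the dim group's lowest detected signal per array. The computation was tested on simulated data. Alternatives covered background correction, normalization, offset, filter, covariates, array weights and each array left out.

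The clock genes and gene lists were chosen with earlier results of these data known. Every probe of the 10 genes is named, and a list gene is named where a kept probe passed an adjusted p of 0.05 with a log2 difference of at least 1. The values of 1 such list gene are not reported here, though the counts of its list include it. Older array symbols were matched through RefSeq synonyms, and promoter sequences came from RefSeq (GRCm38.p6). Samples were grouped by their labels. These speak of triplicates, whereas 4 arrays per treatment were at hand. The methods describe separate, unpooled mice for each treatment, while the labels put 4 hips in a well. How arrays, wells and mice relate is not given. The methods describe culture without serum, while the labels mention serum before treatment.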

Additional observations from a re-analysis of the deposited data

Results flagged for a closer look

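The effect of retinoic acid on Per1 differed between the batches by 0.95 ± 0.24 on the log2 scale in an interaction test (limma, adjusted p = 0.0454), with -0.97 in batch 1 and -0.02 in batch 2. The dim Per3 probe differed between the batches in the effect of IL-1α, by -1.12 ± 0.27 (adjusted p = 0.0300), with 0.98 in batch 1 and -0.14 in batch 2. The same probe differed in the distance between the agents, by 0.93 ± 0.27 (adjusted p = 0.0469), and it was undetected with retinoic acid in batch 1. No array stood apart from the others of its treatment by Dixon's test in the 48 sets of 4 arrays examined, where chance gives about 1 in 20. Each set mixed the batches without centring, and undetected probes were included. A difference between the batches widens the range of a set, so the test cannot decide whether an array stood apart within its batch.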

How the results depend on the processing

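The retinoic acid count of clock probes stayed at 5 to 7 in all settings but treatment alone, which gave 4, and ran from 6 to 7 with 1 array left out. The IL-1α count of 5 became 3 under scaling to one median, 3 of 7 probes tested when detection on all 12 arrays was required, and 1 with treatment alone, and ran from 4 to 7 with 1 array left out. The count between the agents, 7, became 4 with treatment alone and ran from 6 to 8. The batch count of 8 became 5 of 7 probes tested when detection on all 12 arrays was required and ran from 7 to 9 with 1 array left out. Of the interaction counts, each 1, that for retinoic acid was 0 without background correction, under scaling to one median, without a filter, with detection on all 12 arrays and with array weights, and 0 to 1 with 1 array left out. That for IL-1α was 2 under scaling to one median and 0 without a filter, with detection on all 12 arrays and with array weights, and 0 to 2 with 1 array left out. That between the agents was 3 under scaling to one median, 2 with array weights and 0 with an offset of 50, without a filter and with detection on all 12 arrays, and 0 to 2 with 1 array left out. Detection on all 12 arrays left the dim Per3 probe untested, which alone had made the IL-1α and between-agent interaction counts. With treatment alone, limma also lost the differences between the agents of the bright Per3 probe and Nr1d1 (adjusted p = 0.075 and 0.136) and the retinoic acid differences of Csnk1e and Klf9 (adjusted p = 0.103 and 0.154). With an offset of 50, the IL-1α differences of the Npas2 probes moved from 1.14 to 0.75 and from 2.11 to 1.51. Their differences between the agents moved from -1.10 to -0.73 and from -1.66 to -1.25, and that of Usp2 from -1.29 to -0.78. The causes were not tested.

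Replicate numbers were not shown to pair the arrays, since deviations of same-numbered arrays correlated by 0.06, 0.0027 and 0.01 in batch 1 and by -0.11, 0.18 and 0.39 in batch 2. Without the replicate block, 7, 6 and 7 probes were called for retinoic acid, IL-1α and the agents.

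Small differences changed sign. Against batch 1, Per1 was -0.0039 without background correction, -0.0023 with an offset of 50, -0.37 in untreated arrays alone and -0.0642 to 0.115 with 1 array left out. Cry2 was -0.0175 in untreated arrays alone and -0.0238 to 0.0324 with 1 array left out, and Nr1d1 was 0.076 under scaling to one median. With retinoic acid, the dim Clock probe was -0.0374 to 0.211 with 1 array left out, and the bright one 0.0038 under scaling to one median. Nr1d1 with retinoic acid was 0.13 under scaling to one median, 0.032 with array weights and -0.132 to 0.0447 with 1 array left out. Arntl between the agents was -0.0809 without background correction and -0.0886 to 0.0539 with 1 array left out. Dbp with IL-1α was -0.0378 to 0.0898 with 1 array left out. Scaling to one median moved the median of all kept probes to 0.14 for retinoic acid against untreated and to -0.33 for the IL-1α interaction. Dim probes, among them Cry1 and, in batch 1, Arntl, were limited by signal over background.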
